A study of Mus musculus with 4 samples.

Results

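The enlarged heart of the series, the left ventricle of wild-type mice under pressure overload, was set against the 3 groups whose hearts were not or only little enlarged. It was chosen by its title, WT TAC, and by its labelled average ratio of heart to body weight, 6.7 in a unit the labels do not state, and is 1 of 4 arrays in all. The other 3 arrays stood for WT sham (ratio 4.1), STIM1KO sham (4.5) and STIM1KO TAC (4.9). WT is wild type and STIM1KO is the group whose genotype label reads STIM1 KO. The labels do not describe how that allele was made or which cells it reaches. All mice were males of strain C57BL/6, operated at 10 weeks of age and examined 4 weeks later, at 14 weeks. TAC, transverse aortic constriction, ties the aortic arch against a wire of 0.3 mm, so that the left ventricle pumps against a raised pressure. Sham mice went through the surgery with no band placed. Total RNA of the left ventricle was hybridised with Cy5 dye, 1 array for each group, and the labels do not say whether an array held RNA of 1 mouse or of a pool.

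Under sustained pressure the ventricle thickens as its muscle cells grow, and the grown heart is known to return to genes of the fetal heart, such as the natriuretic peptides and the slow myosin heavy chain, and to shift its fuel from fatty acids towards glucose. Early response genes of the AP-1 family, ribosomal proteins, tubulins and matrix genes are further groups known from loaded hearts. STIM1 senses the calcium store of the endoplasmic reticulum and opens Orai channels of the cell surface, and that calcium entry has been linked to growth signals in heart muscle. The labels report that the enlargement seen in the wild type was smaller in the STIM1-deficient mice. The comparison therefore asks which transcripts set the heart that enlarged apart from those that did not.

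Each value below is a normalized intensity, the brightness of a probe after the 4 arrays were given 1 shared distribution. For each gene the value of the enlarged heart is followed by those of WT sham, STIM1KO sham and STIM1KO TAC, in this order. The difference is the log2 value of the enlarged heart minus the mean of the other 3. The range is the highest minus the lowest of those 3, and the distance is how far the enlarged heart lay outside it, which equals the smallest of its 3 single differences. Since 2 of the 3 hearts were STIM1-deficient and 1 had been under TAC, genotype, operation and heart size cannot be told apart in the difference. With 1 array a group there was no replicate, so no test, error or p-value was computed, and the 3 arrays are 3 groups, not replicates of one. In a piece of ventricle, fewer cells of a type and less RNA per cell cannot be told apart.

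Stim1 came first, as a check of the labels. It read 33.9 against 41.6, 20.7 and 13.8, so both STIM1KO hearts lay below both WT hearts. Its mean lay below the limit set for dim genes, a mean log2 intensity of 4.87 or an intensity of 29.3. Of 14039 genes valued on all 4 arrays, 7020 passed that limit and make up the counts below. Markers of heart muscle were present on all 4 arrays, and the summed intensity of the 12 measured cardiomyocyte genes was 246551 in the enlarged heart against 237554, 252750 and 276606. Much of that sum is set by the shared distribution, which gives the brightest probes nearly the same values on every array. Mb read 66594 against 65551, 65551 and 66594, and Myl2 read 58086 against 58086, 58086 and 54170. The sums therefore say little about the content of heart muscle. The arrays stood apart to unequal degrees. STIM1KO TAC held the highest or the lowest value of the 4 for 73.5% of the genes, WT sham for 52.5%, STIM1KO sham for 37.6% and the enlarged heart for 35.9%. The SD over genes of the log2 difference between the enlarged heart and STIM1KO TAC was 0.42, against 0.25 for WT sham and 0.27 for STIM1KO sham. The main results on gene groups are therefore also given with STIM1KO TAC left out. Leaving out an array narrows the range for every gene, and without STIM1KO TAC the enlarged heart was highest for 29.0% and lowest for 33.5% of all genes, the shares to set beside those counts.

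Most genes of the enlarged heart stayed among the other hearts. It was within their range for 4499 of 7020 genes (64.1%), the highest of the 4 for 1177 (16.8%) and the lowest for 1344 (19.1%). The difference had a median of -0.0086 and an SD over genes of 0.22 on the log2 scale, while the range of the other 3 had a median of 0.40. Genes at least 1.5-fold outside the range numbered 4 above (0.057%) and 18 below (0.256%), and at least 2-fold outside there were 0 above (0%) and 5 below (0.0712%). A 2-fold difference from the mean, with the enlarged heart at the end of the 4, was found for 0 genes above (0%) and 11 below (0.157%). The excess of lower genes was not kept under every choice of arrays. Without WT sham 37 genes lay above the range and 29 below. It was kept without STIM1KO sham, with 12 and 26, and without STIM1KO TAC, with 14 and 31. The farthest distance was -1.62 on the low side, for Fez2, and 0.67 on the high side, for Retnla.

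**Figure D1:**
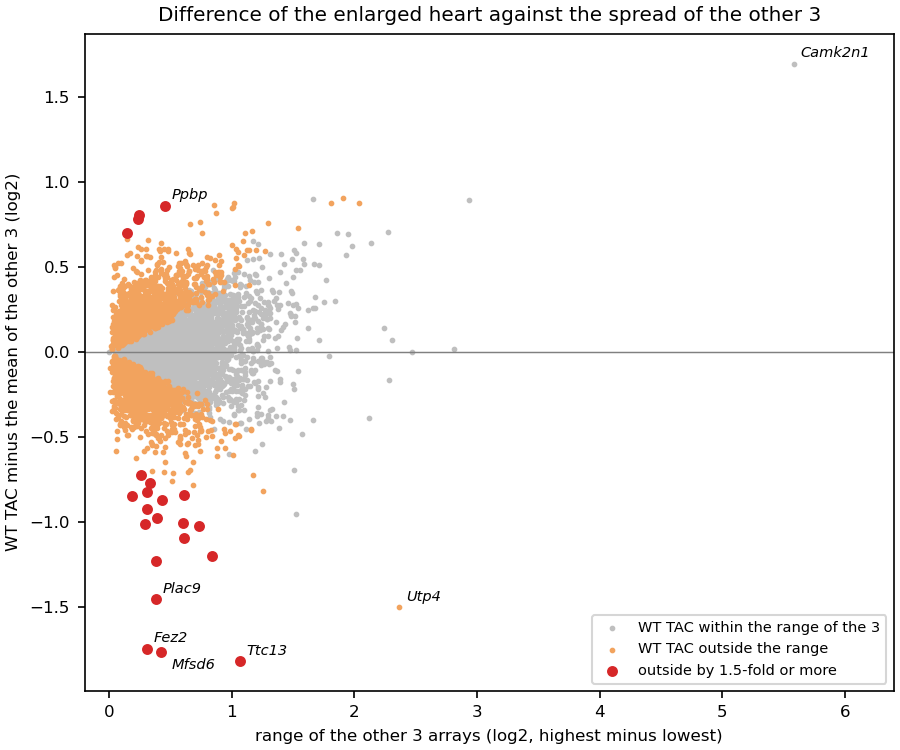
Each point is 1 of 7020 genes. The x axis is the range of the log2 intensity over the WT sham, STIM1KO sham and STIM1KO TAC arrays, and the y axis is the log2 difference of the WT TAC array from their mean. Grey points lie within the range, orange points outside it, and red points outside by at least 1.5-fold, 4 of them above and 18 below. The gene with the largest upward difference, Camk2n1 at 1.70, lies within a range of 5.59.

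The 4 genes above the range by 1.5-fold encode 2 secreted proteins, an early response protein and a ribosomal protein. Retnla, a resistin-like protein secreted by alternatively activated macrophages, read 83.7 against 44.4, 46.8 and 52.5, a difference of 0.81 and a distance of 0.67. Ier3, a stress-induced early response gene that acts on cell survival, read 524 against 306, 331 and 281, with a difference of 0.78 and a distance of 0.66. In both genes the other 3 hearts lay close together and the enlarged heart stood alone above them.

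Ppbp, the precursor of platelet chemokines, read 147 against 96.4, 70.3 and 78.6, with a difference of 0.86 and a distance of 0.61. Its WT sham value was above both STIM1-deficient hearts. Pf4, another platelet chemokine and a gene chosen after the values were seen, read 349 against 320.4, 253 and 243 and lay 0.12 outside the range, the 2 WT hearts again above the other 2. Rplp1, an acidic stalk protein of the large ribosomal subunit, read 4249.8 against 2540.2, 2789.7 and 2524, with a difference of 0.70 and a distance of 0.61. Its other 3 hearts had the narrowest range of the 4 genes, 0.14 on the log2 scale. For all 4 genes the distance exceeded the range, which held for 443 of all genes (6.31%), 201 of them on the high side (2.86%). The 4 were picked by their large distance, so this is no separate result about them.

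The promoters of Retnla, Ier3 and Ppbp are shown because these genes lay farthest above the range, and that of Nppb because it is a known marker of the enlarged heart described next. Each line gives the 150 bases before the start of the gene, 5′ to 3′ on the strand of the gene, from RefSeq on build GRCm38.p6. Capitals mark matches to 8 short motifs on either strand, namely TATAAA for the TATA box, TAAAAAT for the core of MEF2 sites, AGATAA for GATA factors, CATTCC for the M-CAT element, TGACTCA for AP-1, TGACGT for the core of the cyclic AMP element, CACGTG for the E-box and GGAAAA for NFAT.
Retnla, chr16:48842459-48842608, plus strand: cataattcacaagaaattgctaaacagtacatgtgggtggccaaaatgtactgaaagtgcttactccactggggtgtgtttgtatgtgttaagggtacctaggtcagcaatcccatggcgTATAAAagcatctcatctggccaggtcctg
Ier3, chr17:35821563-35821712, plus strand: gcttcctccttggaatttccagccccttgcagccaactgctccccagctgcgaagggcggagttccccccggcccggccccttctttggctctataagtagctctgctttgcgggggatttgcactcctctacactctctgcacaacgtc
Ppbp, chr5:90768368-90768517, plus strand: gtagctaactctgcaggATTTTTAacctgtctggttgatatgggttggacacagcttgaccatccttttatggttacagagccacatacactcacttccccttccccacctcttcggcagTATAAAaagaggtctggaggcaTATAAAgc
Nppb, chr4:147985750-147985899, plus strand: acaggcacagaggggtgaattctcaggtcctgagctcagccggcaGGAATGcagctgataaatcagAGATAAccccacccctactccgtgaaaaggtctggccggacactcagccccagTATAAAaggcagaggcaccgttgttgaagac

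Retnla, Ppbp and Nppb held a TATA match close to the start, and Ppbp held 2 with a MEF2 core farther upstream. Nppb held an M-CAT and a GATA match as well, and the shown stretch of Ier3 held none of the 8. Over 250 bases before the start, the TATA letters stood in 14.3% of all 27025 promoters of the table and in 8.63% of the 5710 promoters of genes that passed the limit. The MEF2 core stood in 6.88% of all promoters, GATA in 11.4%, M-CAT in 14.4%, AP-1 in 5.16%, the core of the cyclic AMP element in 7.29%, the E-box in 6.86% and NFAT in 22.9%. None of the matches overlapped another. A match of letters describes the sequence and is no binding site.

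Natriuretic peptides are hormones of the stretched heart, and both were highest in the enlarged heart by a small margin. Nppa, atrial natriuretic peptide, read 1684 against 1422, 1249 and 1136, with a difference of 0.41 and a distance of 0.24. Nppb, brain natriuretic peptide, read 3778 against 2535, 3045 and 2919, with a difference of 0.42 and a distance of 0.31. STIM1KO TAC was the lowest of the 4 for Nppa and lay between the shams for Nppb. Of the 6 measured genes of the natriuretic group that passed the limit, 4 were highest in the enlarged heart (66.7%, against 16.8% of all genes) and 1 was lowest. Pcsk6, a convertase that activates Corin, read 44.5 against 35.3, 33.4 and 37.6 and was among the 4. So was Furin, at 31.9 against 31.0, 31.3 and 26.9, close to the limit of 29.3 and with a distance of only 0.03. Corin, the protease that cuts the precursor of Nppa, was the lowest, with 626 against 671, 651 and 984. Leaving out STIM1KO TAC, 5 of the 6 were highest and 1 lowest, against 29.0% and 33.5% of all genes.

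The slow myosin heavy chain Myh7 read 76.3 against 50.6, 70.2 and 46.5, highest in the enlarged heart by a distance of only 0.12, with STIM1KO sham nearest. The fast heavy chain Myh6 read 14927 against 15832, 16894 and 12306 and lay within the range. Acta1, the skeletal actin that is a fetal gene of the heart, went the other way. It read 706 against 1881, 1973 and 688, so both TAC hearts lay far below both shams and the enlarged heart did not stand apart from STIM1KO TAC.

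Atp2a2, which pumps calcium back into the sarcoplasmic reticulum, read 19436 against 22342, 22702 and 18663, again with both TAC hearts below both shams. Ankrd1, a stretch-induced repeat protein, read 6415 against 8246, 7483 and 4267, and Rcan1, an inhibitor and target of calcineurin, read 292 against 277, 372 and 283. Both genes lay within the range. Ckb, the brain form of creatine kinase that is made in the fetal heart, read 761 against 653, 628 and 585 with a distance of 0.22.

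Of 19 fetal and hypertrophy genes, 8 were highest (42.1%) and 1 was lowest (5.26%) in the enlarged heart. The median difference of the group was 0.0014, and 10 of the 19 had a difference above 0. Nppa, Nppb and Myh7 belong to this group too. Des, the muscle intermediate filament desmin, was the 1 that was lowest and read 1032 against 1290.2, 1286 and 1688, with a distance of -0.32. Without STIM1KO TAC, the group had 8 highest (42.1%) and 5 lowest (26.3%), against 29.0% and 33.5% of all genes.

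**Figure D2:**
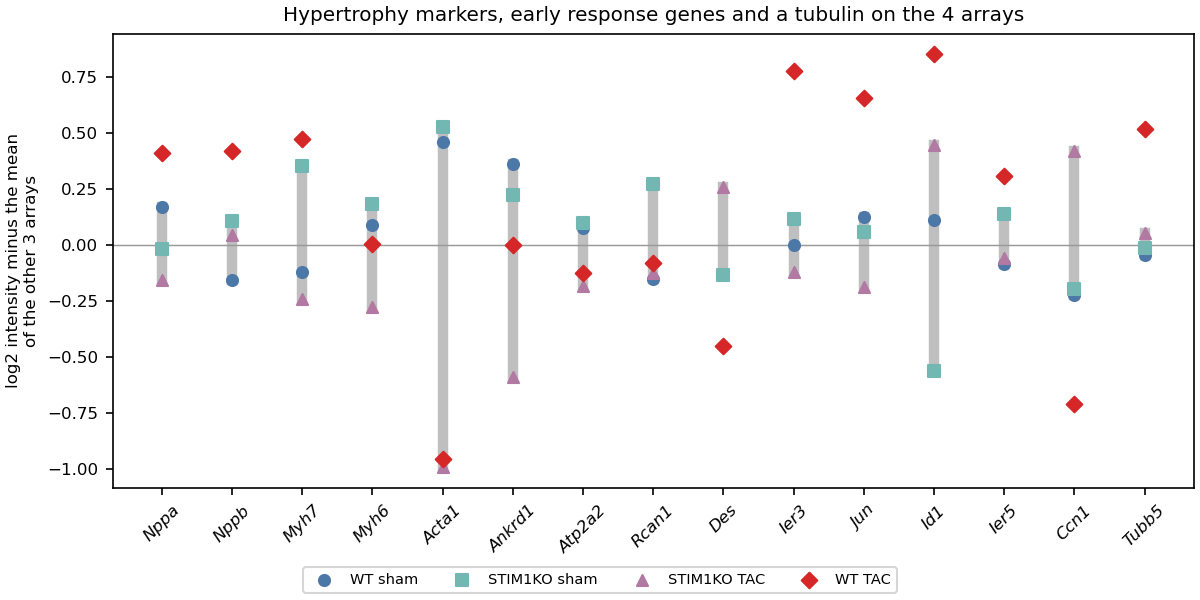
The y axis is the log2 intensity of each array minus the mean of the WT sham, STIM1KO sham and STIM1KO TAC arrays, for 15 genes on the x axis. Grey bars span the range of those 3 arrays. The WT TAC array lies above the bar for Nppa, Nppb, Myh7, Ier3, Jun, Id1, Ier5 and Tubb5, below it for Des and Ccn1, and within it for the others.

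Early response genes, which cells switch on within a short time of a stimulus, leaned towards the enlarged heart. Of 18 measured members that passed the limit, 17 had a difference above 0, and the median was 0.26 against -0.0086 for all genes. Of the 18, 7 were highest in the enlarged heart (38.9%) and 1 was lowest (5.56%), against 16.8% and 19.1% of all genes. Btg2, Id3 and Junb were among the 7 by distances of only 0.01, 0.02 and 0.06. WT sham lay above the enlarged heart for Ccn1, Ccn2, Fosb, Klf2, Klf4 and Klf6, and below it for the other members. Jun, the AP-1 subunit, read 135 against 93.1, 88.7 and 74.9, with a difference of 0.66 and a distance of 0.53. STIM1KO TAC was the lowest of the 4 for Jun, as it was for Ier3.

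Id1, an inhibitor of basic helix-loop-helix factors, read 577 against 345, 216 and 436, with a distance of 0.41. Here STIM1KO TAC came next and STIM1KO sham was the lowest. Ccn1, a matrix-associated growth factor, was the exception of the group and read 50.8 against 71.1, 72.4 and 111, with a distance of -0.49. STIM1KO TAC was its highest. The median of the group stayed above 0 under every alternative tried, from 0.16 to 0.32, and without STIM1KO TAC there were 10 highest (55.6%) and 2 lowest (11.1%) among the 18, against 29.0% and 33.5% of all genes.

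Genes of the cytoskeleton were less uniform. Of 21, 7 were highest in the enlarged heart (33.3%) and 0 lowest, although the median difference was only 0.02 and turned below 0 under 3 of 10 alternatives, leaving out STIM1KO TAC among them. Tubb5, a beta tubulin of microtubules, read 700.4 against 475, 484 and 507, with a difference of 0.52 and a distance of 0.47. Vim, the intermediate filament of fibroblasts and endothelium, read 1757 against 1552, 1232 and 894, both WT hearts above both STIM1-deficient ones. Actb, cytoplasmic actin, read 3127 against 2714, 2902 and 2423. Without STIM1KO TAC, 8 of the 21 were highest (38.1%) and 6 lowest (28.6%), against 29.0% and 33.5% of all genes, and lowest members also appeared without WT sham (4) and without STIM1KO sham (2).

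Tagln2, an actin-binding relative of transgelin, read 299 against 206, 211 and 212. The other 3 hearts spanned a range of only 0.04 and the distance was 0.50. Tusc3, a subunit of the enzyme that attaches sugars to asparagine, behaved alike and read 149.96 against 102, 104 and 108, with a distance of 0.48. In both genes the 3 other hearts were nearly level and the enlarged heart alone was raised.

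Pear1, a receptor of platelets and endothelium, lay just short of 1.5-fold and read 78.03 against 48.2, 52.2 and 47.1, with a distance of 0.58. Ltc4s, the synthase of leukotriene C4, read 85.6 against 56.9, 60.7 and 53.9, with a distance of 0.50. Both had STIM1KO TAC as the lowest heart. Sh3bgrl3, a small protein of the thioredoxin fold, read 480.2 against 334, 211 and 327, and Scamp4, a carrier protein of secretory membranes, read 75.2 against 44.8, 52.8 and 49.9. The other 3 hearts were close together for Scamp4 and spread over 0.66 for Sh3bgrl3.

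In the contractile apparatus the picture was mixed. Among 22 sarcomere genes, 5 were highest (22.7%) and 3 lowest (13.6%), and the median difference was -0.02, which turned above 0 with the values as deposited, with no limit for dim genes and without STIM1KO TAC. Myom2, an M-band protein that ties thick filaments, read 1521 against 1033, 1056 and 520.1, with a distance of 0.53. STIM1KO TAC lay far below the other 3 hearts, which made the range 1.02. Myl3, the ventricular essential light chain, read 2047 against 1124, 1455 and 1809.9, with a distance of 0.18, and there both TAC hearts exceeded both shams. Tmod1, which caps the pointed end of actin, read 489 against 568, 667 and 616 and was lowest in the enlarged heart.

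Genes of the intercalated disc, which join heart muscle cells end to end, leaned down in the enlarged heart and in WT sham. Of 19, 0 were highest in the enlarged heart and 7 were lowest (36.8%, against 19.1% of all genes), with a median difference of -0.12. Ctnna1, alpha catenin, read 1264 against 1721, 1759.9 and 1498, with a distance of -0.24. Ctnna3, the alpha catenin of heart and testis, read 202 against 225, 259.8 and 311. Nrap, an anchoring protein of the cell ends, read 75.3 against 82.0, 96.9 and 106. In Ctnna1 the heart nearest to the enlarged one was STIM1KO TAC, while in Ctnna3 and Nrap that heart was the highest.

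The median of the disc group stayed below 0 under every alternative, from -0.20 to -0.02. With the arrays centred on their medians, or with the values as deposited, 2 of the 19 were highest (10.5%) and 4 lowest (21.1%), where all genes had 19.5% and 16.5% under centring and 24.6% and 12.1% as deposited. Without STIM1KO TAC, 2 were highest (10.5%) and 8 lowest (42.1%), against 29.0% and 33.5% of all genes, so the share of lowest genes was then nearer to that of all genes. The distances were small beside the median range of 0.40 of all genes.

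**Figure D3:**
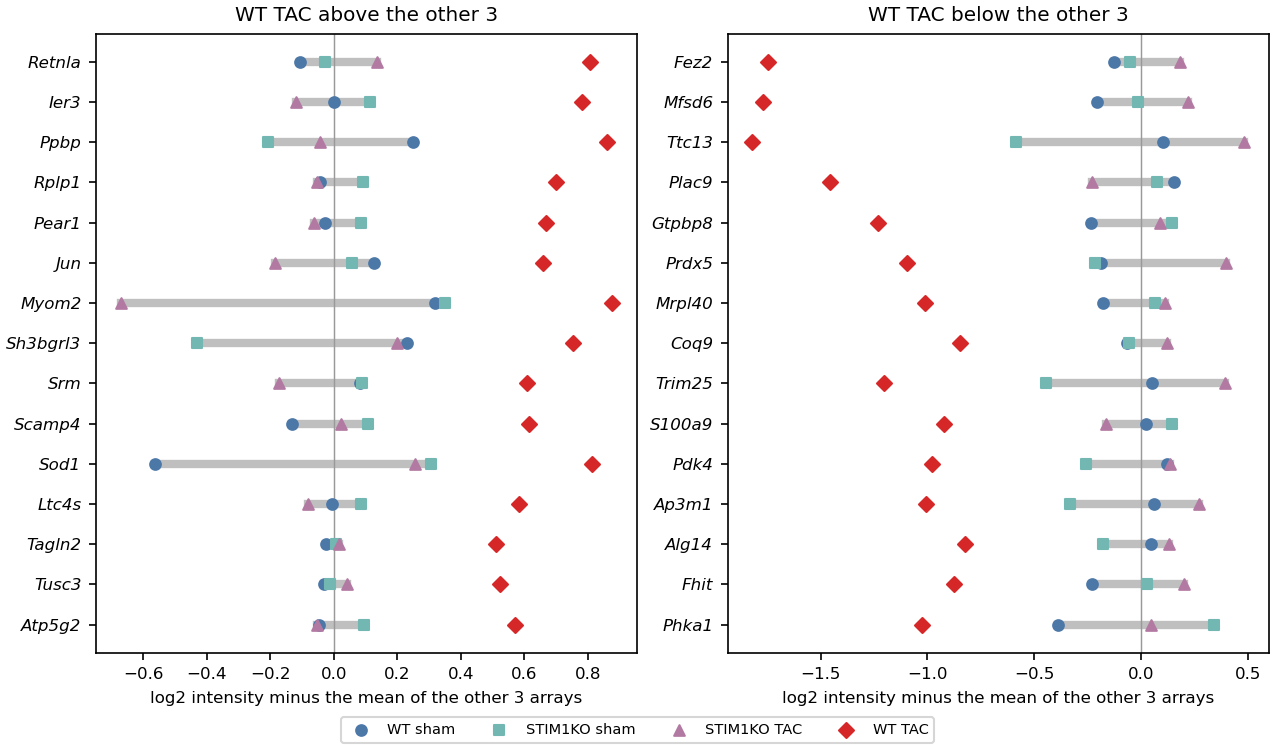
The x axis is the log2 intensity minus the mean of the WT sham, STIM1KO sham and STIM1KO TAC arrays, with 1 symbol for each array and a grey bar for the range of those 3. The genes are the 15 farthest above the range and the 15 farthest below it, and the WT TAC symbol stands outside every bar, from 0.47 to 0.67 above and from -1.62 to -0.64 below.

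The 18 genes below the range by 1.5-fold reached farther out than the 4 above it. For 16 of them the distance exceeded the range, as for 242 of all genes on the low side (3.45%). The 18 too were picked by their distance, so the 16 are no separate result. Fez2, of the FEZ family of adaptor proteins, read 169 against 519, 546 and 643, with a difference of -1.75 and a distance of -1.62. Plac9, which stands in the genome as 2 near-identical copies that the probe may not separate, read 221 against 675, 637 and 517, with a distance of -1.23. Among the 18, Plac9 was the 1 gene that ran downwards in the order of the labelled heart weights, from WT sham through STIM1KO sham and STIM1KO TAC to WT TAC. Retnla was the 1 of the 4 higher genes that ran upwards in it. Among the 1344 genes lowest in the enlarged heart 121 ran downwards in that order (9%), and among the 1177 highest 160 ran upwards (13.6%).

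Mfsd6, a membrane protein of the major facilitator family, read 19.1 against 56.4, 64.4 and 75.6, with a distance of -1.56. Another, far dimmer probe of Mfsd6 read 4.50 against 3.99, 5.09 and 5.06 and lay within its range, so the 2 probes disagreed. Ttc13, a protein with tetratricopeptide repeats, read 26.5 against 101, 62.4 and 131, with a distance of -1.23 beside a wide range of 1.07. For 7 of the 18 genes, Mfsd6 and Ttc13 among them, the enlarged heart itself read below the limit for dim genes.

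Prdx5, a peroxiredoxin of mitochondria and peroxisomes, read 2050.3 against 3855, 3784 and 5788, with a distance of -0.88, and STIM1KO TAC was the highest. Mrpl40, of the large subunit of the mitochondrial ribosome, read 255 against 455, 538 and 557, with a distance of -0.83. Coq9, needed to make ubiquinone, read 492 against 847, 851 and 965, with a distance of -0.78. The other 3 hearts spanned only 0.19 for Coq9, the narrowest range of the 18.

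Pdk4, the kinase that shuts pyruvate dehydrogenase and so holds back the burning of glucose, read 104 against 222, 171 and 224, with a difference of -0.98 and a distance of -0.72. The next lowest heart was STIM1KO sham. Phka1, the muscle regulatory subunit of phosphorylase kinase, read 19.0 against 29.5, 49.0 and 39.97, and Fhit, a hydrolase of dinucleoside polyphosphates, read 21.1 against 33.0, 39.5 and 44.6. For both genes WT sham was the next lowest, and the enlarged heart read below the limit for dim genes.

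S100a9, a subunit of the calcium-binding protein calprotectin of neutrophils and monocytes, read 18.5 against 35.5, 38.6 and 31.2, with a distance of -0.76. Its partner S100a8, chosen after the values were seen, read 22.6 against 15.6, 26.9 and 28.8 and lay within the range, so the pair did not move together on these arrays, and both were dim. Trim25, a ubiquitin ligase of antiviral signalling, read 21.5 against 51.3, 36.4 and 65.1. Ap3m1, a subunit of the AP-3 sorting complex, read 59.8 against 125, 95.2 and 145. Alg14, which helps build the sugar chain for N-glycosylation, read 35.7 against 65.2, 55.8 and 69.3. STIM1KO TAC was the highest of the 4 for these last 3 genes.

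The heart under TAC without STIM1 stood at the far end from the enlarged heart in most of these genes. It was the highest of the 4 for 14 of the 18 lower genes, and among all 1344 genes lowest in the enlarged heart it was the highest for 748 (55.7%). Among the 1177 genes highest in the enlarged heart it was the lowest for 589 (50%), Ier3 and Rplp1 included. STIM1KO TAC was the array at the end of the 4 for most genes in any case. It came next to the enlarged heart, beyond both shams, for 313 of the 1177 (26.6%) and 298 of the 1344 (22.2%).

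The fuel genes gave few large differences beside Pdk4. Among 30 genes of fatty acid uptake and oxidation, 4 were highest and 6 lowest (20%) in the enlarged heart, and the median difference was -0.07, which turned above 0 with the values as deposited. Acadvl, the very long chain acyl-CoA dehydrogenase, read 4536 against 5422, 5788 and 5989, with a distance of -0.26. Ucp3, an uncoupling protein that follows fatty acid supply, read 43.7 against 86.5, 51.7 and 63.0, with a distance of -0.24. Cd36, the fatty acid transporter, went the other way and read 5422 against 4766, 4560.4 and 4595.

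Glucose genes numbered 27, with 3 highest and 5 lowest (18.5%), a share near that of all genes. Slc2a1, the glucose transporter GLUT1 of the fetal heart, read 73.1 against 51.5, 59.1 and 54.5, with a difference of 0.41 and a distance of 0.31. Pgam1, a glycolytic mutase, read 1066 against 831, 933 and 836. Of 31 genes of pyruvate dehydrogenase and the citrate cycle, 3 were highest (9.68%) and 10 lowest (32.3%). Idh3a, the catalytic subunit of the NAD-dependent isocitrate dehydrogenase, read 2618 against 3009, 3484 and 3105, whereas Idh3g of the same enzyme read 8823 against 6158, 8111 and 8002, so its subunits did not move together. The median difference of the 31 was -0.03, and with the values as deposited it turned above 0, with 7 highest and 5 lowest. All genes then had 24.6% highest, 12.1% lowest and a median of 0.05. Beside these, the group still had a smaller share highest and a larger share lowest. Without STIM1KO TAC, 7 were highest and 16 lowest (51.6%, against 33.5% of all genes).

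Respiratory complex I had 4 of 33 genes highest (12.1%) and 10 lowest (30.3%), with a median difference of -0.04 that turned above 0 with each array centred on its median and on the deposited scale. Without STIM1KO TAC, 8 were highest and 17 lowest (51.5%, against 33.5% of all genes). Ndufs4, an accessory subunit, read 4595 against 5275, 5262 and 6209.9 and was lowest, and Ndufb2 read 40.2 against 27.2, 31.2 and 32.8 and was highest. Complexes III to V had 9 of 35 highest (25.7%) and 5 lowest (14.3%). Their median difference was -0.0014, with 17 of the 35 above 0, and it turned above 0 under 5 of 10 alternatives. Without STIM1KO TAC, 14 were highest (40%) and 13 lowest (37.1%), against 29.0% and 33.5% of all genes. Atp5g2, a gene of the membrane ring of ATP synthase, read 7877 against 5137, 5669.9 and 5117, with a distance of 0.47. Atp5g1, which encodes the same ring protein, read 6798 against 5594, 5137 and 4789, with a distance of 0.28.

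Among 18 regulators of metabolism 5 were highest (27.8%) and 6 lowest (33.3%). Pparg, the nuclear receptor of fat cells, read 126 against 96.8, 76.9 and 84.7, with a distance of 0.38. Ppargc1b, a coactivator of mitochondrial genes, read 108 against 174, 150.29 and 134, with a distance of -0.30. Ppara, the nuclear receptor that drives fatty acid oxidation, read 123 against 107, 92.5 and 63.2, with STIM1KO TAC far the lowest.

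Ribosomal protein genes leaned up slightly. Of 47 cytosolic ribosomal protein genes, 14 were highest in the enlarged heart (29.8%) and 5 lowest (10.6%), and 28 had a difference above 0. The median difference was 0.05 and stayed above 0 under every alternative, from 0.004 to 0.13, so at its lowest it was close to none. Rplp1 was the only ribosomal protein gene of these 47 past 1.5-fold. Rpl38 read 52.1 against 39.0, 43.8 and 33.2, with a distance of 0.25, and Rpl6 read 4455 against 3802, 3991 and 2952. For both, STIM1KO TAC was the lowest. Without STIM1KO TAC, 16 were highest (34%) and 10 lowest (21.3%), against 29.0% and 33.5% of all genes. Ribosomal protein genes have many processed pseudogenes, so their probes are less certain.

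Eif3l, a subunit of initiation factor 3, read 550.2 against 395, 414 and 398, with a distance of 0.41 beyond a narrow range of 0.07. Srm, spermidine synthase, read 106 against 73.6, 73.9 and 61.7, with a distance of 0.52. Of 34 proteasome subunits, 6 were highest (17.6%) and 12 lowest (35.3%), with a median of -0.06 that turned above 0 with the values as deposited. Without STIM1KO TAC, 9 were highest and 16 lowest (47.1%, against 33.5% of all genes). Psma2 of the core read 867 against 694, 709 and 587 and was highest, and Psmc6 of the regulatory base read 430.1 against 569.8, 502 and 612 and was lowest.

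Antioxidant genes split. Of 31, 6 were highest (19.4%) and 7 lowest (22.6%), near the shares of all genes. Sod1, the cytosolic superoxide dismutase, read 114 against 43.9, 80.1 and 77.5, with a distance of 0.51 and WT sham far the lowest. Pon2, a paraoxonase, read 142 against 67.4, 113 and 76.6. With Prdx5 below the range and Sod1 above it, members of the group lay at both ends.

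Matrix genes did not stand out. Col1a1, fibrillar collagen, read 31.1 against 35.5, 28.4 and 19.7 and was too dim for the limit. Col3a1, another fibrillar collagen, read 641 against 748, 610.4 and 593, and Postn, a matrix protein of activated fibroblasts, read 28.1 against 33.7, 30.4 and 31.7. Of 15 collagens, 2 were highest (13.3%) and 3 lowest (20%). Col8a2 was the farthest out and read 769.7 against 1035, 1062 and 1404, with a distance of -0.43.

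Of 23 other matrix genes, 2 were highest (8.7%) and 6 lowest (26.1%). Thbs2, a thrombospondin of the matrix, read 26.9 against 40.7, 40.1 and 51.1, with a distance of -0.58, just short of 1.5-fold. Fbln1, fibulin 1, read 43.3 against 54.3, 58.0 and 55.1, with a distance of -0.33. Among 14 TGF-beta genes 5 were highest (35.7%) and 4 lowest (28.6%), against 16.8% and 19.1% of all genes. Fstl1 and Smad6 were among the 5 by distances of only 0.008 and 0.007.

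Genes of store-operated calcium entry besides Stim1 moved little. Of 8, 3 were highest (37.5%) and 0 lowest, against 16.8% and 19.1% of all genes, with a median difference of 0.11. Orai3, a channel subunit, read 79.2 against 64.1, 70.3 and 62.5, and Orai1, the main channel subunit, read 90.7 against 72.8, 83.5 and 90.00. The distances were 0.17 and 0.01, and the other of the 3, Saraf, lay outside by only 0.03. Among 11 calcineurin and NFAT genes 1 was highest and 2 were lowest.

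Markers of other cells were read beside these groups. In the enlarged heart the summed intensity of the measured macrophage genes was 3487 against 3460, 2974 and 3699, so that it lay among the others, and 0 of 15 that passed the limit were highest. Retnla was the highest in the enlarged heart although this sum was not, and the part of macrophages in it was not tested. For endothelial genes the sum was 5149 against 5523, 4027 and 4100, both WT hearts above both STIM1-deficient hearts. Of 14 endothelial genes 4 were highest (28.6%) and 0 lowest, and their part in the values of Vim was not tested. For fibroblast genes the sum was 14220 against 16703, 13140 and 10022. For smooth muscle and pericyte genes the sum was 3728 against 4167, 4276 and 3964, lowest in the enlarged heart. That place rested on Des, a gene of heart muscle too, which read 1032 against 1290, 1286 and 1688. With Des left out, the sum was lowest in STIM1KO TAC and the enlarged heart lay among the others. Of 11 that passed the limit, 5 were highest (45.5%) and 1, Des, was lowest (9.09%), against 16.8% and 19.1% of all genes. Their median difference was -0.01, and 5 of the 11 had a difference above 0. Farthest above the range was Rgs4, a regulator of G protein signalling, with 80.4 against 63.2, 62.1 and 48.6. Alas2, the 1 erythrocyte gene that passed the limit, read 69.2 against 73.1, 68.3 and 118.

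**Figure D4:**
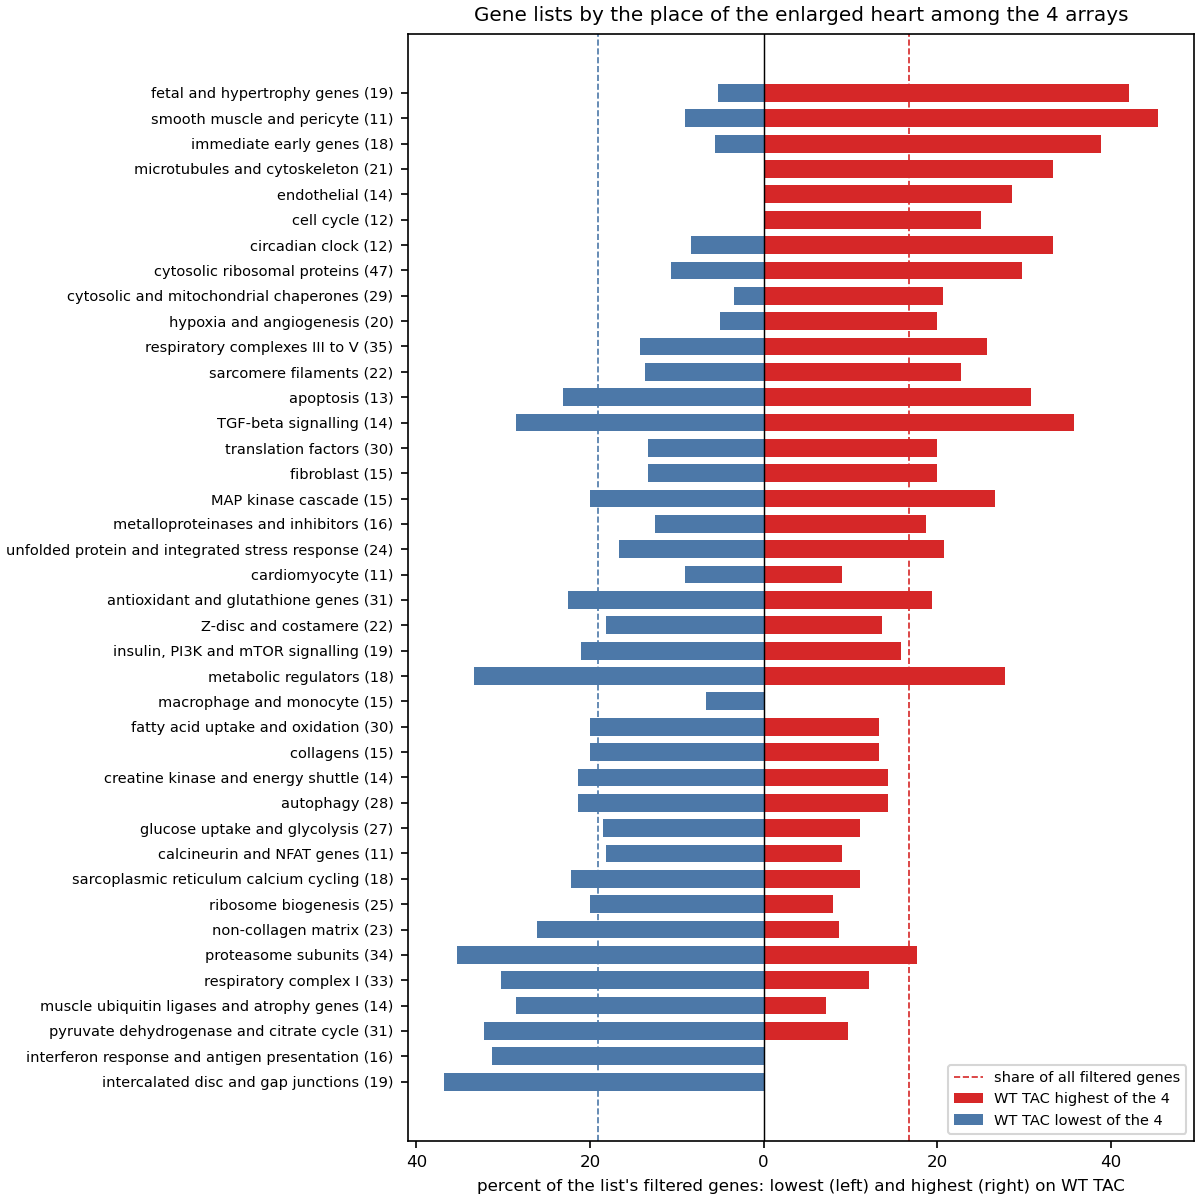
Each pair of bars is 1 gene group with at least 10 members past the limit, their number in brackets. The x axis is the percent of those members for which WT TAC was the lowest of the 4 arrays (blue, to the left) or the highest (red, to the right), and dashed lines mark the shares of all genes, 19.1% and 16.8%. Fetal and hypertrophy genes have 42.1% highest and intercalated disc genes 36.8% lowest.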

How the data were processed

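The deposited table held 1 linear intensity per probe and array, made by the authors. Per the labels' protocols, amino allyl RNA was amplified from the total RNA, coupled to Cy5 and fragmented by the protocol of TORAY Industries. Scanning, background correction and the reason for empty cells are not stated in the labels. Of 23473 probes, 19607 had a value on all 4 arrays. A symbol was paired with 16631 probes, 3947 of the symbols were updated by a gene table of GRCm38.p6, and 6842 probes had none.

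Values were taken to log2 and quantile normalized over the probes valued on all 4 arrays. The brightest probe stood for a gene, and genes were kept from the median of their mean log2 values upwards, 4.87. The WT TAC array was set against the mean and the range of the other 3. The number of arrays, 1 for each group, limits the precision, and no test was made. The genes named are 12 fixed markers, the 15 farthest outside the range each way, up to 5 each way past 1.5-fold whose other 3 arrays lay closest, and up to 4 members of each list, farthest first. Ier5, Pf4, S100a8, Camk2n1 and the genes called separated in the closing section were chosen after their values were seen. The members and lists were chosen with earlier results of these data known. The steps were tested on simulated data. Python 3.11.15 with numpy 2.4.6, pandas 2.3.3 and matplotlib 3.10.9 was used. Alternatives were 2 other scalings, 2 other limits for dim genes, an offset of 5.49 intensity units, the mean over probes, other thresholds, the median of the 3 as centre and each of the 3 arrays left out.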

Additional observations from a re-analysis of the deposited data

How the results depend on the processing

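Genes at least 1.5-fold outside the range numbered 4 above and 18 below, and genes 2-fold from the mean 0 and 11. With the values as deposited, 9 lay above the range, the same 4 with Ltc4s, Myom2, Pear1, Scamp4 and Sod1. With no limit for dim genes, 60 lay above and 157 below, and 32 and 98 were 2-fold from the mean. With the limit at the 75th percentile, 2 lay above and 8 below, and 4 were 2-fold below the mean, as fewer genes were counted. At thresholds of 2-fold outside the range and 1.5-fold from the mean, 0 lay above and 5 below, and 39 above and 38 below were that far from the mean, with no excess of lower genes. Leaving out 1 array narrows the range by construction, and the counts then ran from 12 to 37 above and from 26 to 31 below, and from 2 to 16 and from 10 to 11 for 2-fold from the mean. Without WT sham they were 37 and 29 outside the range, with 16 genes 2-fold higher and 11 lower, so the excess of lower genes turned into an excess of higher ones, and the cause was not tested. Without STIM1KO sham they were 12 and 26, with 2 genes 2-fold higher, and without STIM1KO TAC 14 and 31, with 5. With median centring, 17 of the 18 lower genes were shared, Thbs2 in place of Rfpl4. The offset left 3 above, without Ppbp, and 14 below, and the mean over probes removed Mfsd6.

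Scaling moved the split of high and low places. The enlarged heart was highest for 16.8% and lowest for 19.1% of genes, 19.5% and 16.5% with median centring, and 24.6% and 12.1% with the values as deposited, where the median difference of all genes was 0.05. Small group medians are therefore uncertain in sign, as given above for fatty acid, citrate cycle, complex I and proteasome genes. Dim genes limit the rest, since 7 of the 18 lower genes read below the limit in the enlarged heart. No paired analysis was possible because each group holds 1 array and no result comes from a test.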

Other observations

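In gene groups not described above, the enlarged heart lay lowest for 5 of 16 interferon and antigen presentation genes (31.2%) and highest for 0. The shares of all genes were 19.1% and 16.8%. The 5 had small distances, -0.10 for Irf7, -0.09 for Psmb8, -0.07 for Tap2, -0.04 for B2m and -0.02 for Ifitm3. Measured from the mean of all 4 arrays, the group's median was nearly as low in STIM1KO TAC as in the enlarged heart. Irf7, a regulator of interferon genes, read 28.2 against 40.1, 32.4 and 30.1, and Psmb8, an immunoproteasome subunit, read 229.7 against 244, 280.03 and 304. With the values as deposited, 2 of the 16 were highest and 3 lowest, where all genes had 24.6% and 12.1%. Among 12 clock genes 4 were highest (33.3%, against 16.8% of all genes), by small distances. These were 0.07 for Per1, 0.03 for Csnk1d, 0.006 for Nr1d1 and 0.005 for Rora. The 1 that was lowest (8.33%, against 19.1%) was Ciart, a repressor of the clock. It read 23.2 against 35.2, 33.6 and 53.8, with a distance of -0.53. Among 12 cell cycle genes 3 were highest (25%) and 0 lowest, against 16.8% and 19.1% of all genes, with a median difference of 0.21. The 3 lay outside by only 0.07 (Rb1), 0.05 (Ccnd2) and 0.03 (Cdk4). Measured from the mean of all 4 arrays, the group's median was 0.16 in the enlarged heart and 0.12 in WT sham. It was -0.14 in STIM1KO sham and -0.09 in STIM1KO TAC. Without STIM1KO TAC, 4 were highest (33.3%) and 2 lowest (16.7%), against 29.0% and 33.5% of all genes. Rb1, the retinoblastoma protein, read 332 against 258, 253 and 317, and Ccnd2, cyclin D2, read 597 against 448, 385 and 577, with both TAC hearts above both shams for these 2.

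Stress genes lay on both sides. Of 24 genes of the unfolded protein and integrated stress response, 5 were highest and 4 lowest, with Atf4, the central transcription factor of that response, at 405 against 343, 347 and 244 and Sesn2, a sestrin induced by stress, at 255 against 299, 317 and 426. Of 28 autophagy genes, 4 were highest and 6 lowest, and Sqstm1, a cargo receptor, read 887 against 989, 1068 and 1257. Fbxo32, the muscle ubiquitin ligase atrogin, read 41.6 against 57.2, 47.0 and 86.7 in a group of 14 atrophy genes with 1 highest and 4 lowest. Mcl1, which protects from cell death, read 753 against 1079.8, 916 and 1036. Rheb, the activator of mTOR complex 1, read 1139 against 915, 810.2 and 918, with a distance of 0.31.

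Genes with a distance of at least 0.4 and at least 5 times the range were looked for after the values were seen. There were 6 above and 4 below. Above, besides Tagln2, Tusc3 and Eif3l, Lamtor3, a scaffold of lysosomal signalling, read 434 against 313, 309 and 303, Tti1, which helps assemble mTOR-like kinases, read 78.6 against 58.9, 57.3 and 57.7, and Noct, the rhythmic gene nocturnin, read 64.0 against 44.5, 46.1 and 45.2. Below, besides Fez2, Fah, the last enzyme of tyrosine breakdown, read 75.3 against 111, 116 and 111. Ctsb, the lysosomal protease cathepsin B, read 1097 against 1521, 1594 and 1577, and Timm44, of the mitochondrial import motor, read 207 against 294, 282 and 283. In each of these the other 3 hearts lay within a range of 0.31 or less.

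Some large values were not particular to the enlarged heart. Camk2n1, an inhibitor of the calmodulin kinase CaMKII, had the largest upward difference, 1.70, but read 92.4 against 90.5, 111 and 2.31, so that STIM1KO TAC alone stood apart. Utp4, of ribosome assembly, read 18.3 against 112, 57.4 and 21.8, low in both TAC hearts. Among 2117 probes without a symbol that passed the limit, 2 lay above the range by 1.5-fold and 6 below. Probes with a value on WT TAC only numbered 250, none brighter than 10.9, and 317 were empty on WT TAC only.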
